A study of Mus musculus with 10 samples.

Results

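Transcripts of 8 genes of cholesterol synthesis and its control were followed in mouse embryonic fibroblasts (MEFs) with and without a mild heat treatment. The genes were Hmgcs1, Idi1, Fdps, Fdft1, Sqle, Lss, Dhcr7 and Insig1, a list of sterol genes controlled by the transcription factor SREBP2. Every probe set annotated to 1 of these symbols alone was taken, which gave 19 probe sets on the Affymetrix mouse arrays. The 8 genes are 8 of the 18193 genes on the arrays, and all 8 were among the 10915 genes bright enough to be tested. Intensities are on the linear scale of the deposited values, and log2 values are quantile normalized.

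The series set heat-treated against unheated cells of a line labelled hsp70 (-/-), also called knockout, and of a line labelled (+/+), also called rescue. They are named KO-labelled and rescue-labelled here. KO-labelled preshocked cells (3 arrays, numbered 5, 11 and 13) grew for 20 hours in 96-well plates. They then had a preshock of 43 °C and 30 minutes in a bath of water, and were harvested 3 hours later. KO-labelled unheated cells (3 arrays, numbered 6, 12 and 14) were harvested at 23 hours without heating. The rescue-labelled line was treated in the same ways, with 2 preshocked arrays (31 and 43) and 2 unheated arrays (32 and 44). All groups were kept in DMEM with 10% foetal bovine serum, and each array carried RNA pooled from 144 wells. The labels do not say how the rescue line was made, whether either line is a single clone, or whether the samples of a group came from separate cultures, so the p-values cover no more than the spread among these samples, which may be technical.

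Cells make cholesterol from acetyl-CoA through mevalonate, the isoprenoid diphosphates and squalene. When sterol in the membrane of the endoplasmic reticulum runs low, the escort protein SCAP carries SREBP2 to the Golgi, where site-1 and site-2 proteases cut it. The freed part enters the nucleus and binds sterol regulatory elements in the promoters of pathway genes, usually beside sites for the factor NF-Y. Insig proteins hold SCAP and SREBP2 in the endoplasmic reticulum when sterol is plentiful, and Insig1 is itself a target of SREBP2. Cultured fibroblasts both make cholesterol and take it up from serum lipoproteins.

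Along that route, Hmgcs1 encodes the cytosolic HMG-CoA synthase, which makes the precursor of mevalonate. Idi1 encodes the isomerase of isopentenyl diphosphate, and Fdps the synthase of farnesyl diphosphate. Fdft1 encodes squalene synthase, the step that commits carbon to sterols. Sqle encodes squalene epoxidase, Lss lanosterol synthase, and Dhcr7 the reductase that turns 7-dehydrocholesterol into cholesterol.

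On the mouse assembly GRCm38.p6, RefSeq places the genes on 7 chromosomes. Hmgcs1 lies at chr13:119690351-119708260 and Idi1 at chr13:8885606-8892396. The others are Fdps at chr3:89093588-89101967, Fdft1 at chr14:63145150-63181687, Sqle at chr15:59315092-59331193, Lss at chr10:76531565-76557139, Dhcr7 at chr7:143823167-143848410 and Insig1 at chr5:28071412-28078662. RefSeq promoter windows of GRCm38.p6, from 250 bases before to 50 after a gene's start, were at hand for 5 of the 8 genes (Hmgcs1, Idi1, Insig1, Lss and Dhcr7, the last with 3 starts). They were searched on both strands for the letters CACNCCAC, as found in sterol regulatory elements, for CCAAT, the NF-Y box (ATTGG on the other strand), and for GAANNTTC, a pair of facing heat shock factor half-sites. Below are the windows of Hmgcs1 and Insig1, which hold the first pattern and belong to genes that were called in a comparison given further on, and that of Idi1, which was not called and holds the third. Each is given 5′ to 3′ on the plus strand, with every match in capitals. Hmgcs1 is at chr13:119690101-119690400, Insig1 at chr5:28071162-28071461 and Idi1 at chr13:8885356-8885655.
Hmgcs1: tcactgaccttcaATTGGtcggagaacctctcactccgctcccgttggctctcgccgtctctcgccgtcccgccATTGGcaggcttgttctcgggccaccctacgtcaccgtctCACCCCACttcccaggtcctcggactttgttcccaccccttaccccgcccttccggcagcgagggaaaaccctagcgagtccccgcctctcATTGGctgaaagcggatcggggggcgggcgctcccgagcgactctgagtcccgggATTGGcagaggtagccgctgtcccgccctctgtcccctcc
Insig1: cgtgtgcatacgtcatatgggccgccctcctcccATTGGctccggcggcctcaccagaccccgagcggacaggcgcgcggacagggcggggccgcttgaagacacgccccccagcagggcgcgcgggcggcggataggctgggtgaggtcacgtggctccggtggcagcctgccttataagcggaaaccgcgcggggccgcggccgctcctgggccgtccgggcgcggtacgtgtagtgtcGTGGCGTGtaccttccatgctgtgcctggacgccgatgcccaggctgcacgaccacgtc
Idi1: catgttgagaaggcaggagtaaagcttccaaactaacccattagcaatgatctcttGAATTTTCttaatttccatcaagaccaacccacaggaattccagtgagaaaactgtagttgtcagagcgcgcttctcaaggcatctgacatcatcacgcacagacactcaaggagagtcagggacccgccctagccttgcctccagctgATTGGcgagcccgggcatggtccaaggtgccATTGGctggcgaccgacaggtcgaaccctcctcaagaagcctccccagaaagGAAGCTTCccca

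Counted from the start, so that negative positions lie before it, the Hmgcs1 window has CACCCCAC at -136 and 4 NF-Y boxes, at -237, -176, -45 and 11. The Insig1 window has the first pattern on the minus strand at -9 and an NF-Y box at -216. The Idi1 window has NF-Y boxes at -45 and -14, no match to the first pattern, and facing half-sites at -194 and 39. An NF-Y box was found in a window of all 5 genes searched, the sterol pattern in 2 and the facing half-sites in 1. Counted by window, as the shares that follow are, an NF-Y box was in 5 of the 7 windows, the sterol pattern in 2 and the facing half-sites in 1. Over 32851 RefSeq windows of the same length, 6.24% held CACNCCAC, 37.4% held CCAAT and 7.86% held GAANNTTC on either strand, and these matches overlap no other match in the windows shown. A match is a description of letters, not a measured binding site.

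The arrays carried the signs of heated fibroblasts, with a reservation about the line labels. Fibroblast markers (6 of 6 tested, among them Col1a1 and Vim) summed to 57677 to 72207 on every array. This sum and the next ones are of normalized values taken back to the linear scale, not of deposited intensities. Not every fibroblast marker was bright. Group means on the log2 scale ran from 6.06 to 7.08 for the fibroblast marker Thy1, and from 6.86 to 7.83 for the macrophage marker Csf1r. Epithelial markers had 2 of 5 genes among those tested and summed to at most 734, macrophage and leukocyte markers 2 of 5 and at most 634, endothelial markers 1 of 4 and at most 224, and adipocyte markers 1 of 4 on the arrays and at most 176. Hspa1b, an inducible Hsp70 gene, had intensities of 19912, 30652 and 31556 on the KO-labelled preshocked arrays 5, 11 and 13, against 212, 477 and 220.4 on the KO-labelled unheated arrays 6, 12 and 14. It had 37506 and 24677 on the rescue-labelled preshocked arrays 31 and 43, against 675 and 465 on the unheated arrays 32 and 44. Its signal was thus induced in the line labelled as lacking Hsp70 (log2 change 6.81 ± 0.37 SE, limma adjusted p = 2.49e-04) as well as in the other (5.60 ± 0.46, adjusted p = 0.00253), which goes against the label if these probes read the deleted part. The Hspa1a probe set lay between 3.49 and 25.8 on all 10 arrays and was too dim to test. Arrays 5 and 6 had the highest median intensities, 100.4 and 107.02, against 50.7 to 73.7 on the other 8. The log2 ratio of 3′ to 5′ Gapdh probe sets, a measure of RNA quality, averaged -0.292 ± 0.081 in KO-labelled preshocked and -0.278 ± 0.018 in KO-labelled unheated arrays (SD, n = 3 each), and -0.264 ± 0.094 and -0.251 ± 0.053 in rescue-labelled preshocked and unheated arrays (SD, n = 2 each).

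After preshock, the sterol genes lay mostly lower, and over both lines the log2 changes farthest below 0 among the 8 were those of Hmgcs1 and Sqle. In KO-labelled cells the log2 changes of the 8 genes ran from -0.998 to -0.06, with all 8 below 0, and in rescue-labelled cells 7 of 8 were below 0. Over all genes tested, 58.4% were below 0 in KO-labelled and 55.5% in rescue-labelled cells. The median of the 8 was -0.29 in KO-labelled cells, where that of all genes tested was -0.04, and -0.28 in rescue-labelled cells, where it was -0.03. In RNA from whole cultures, fewer cells of a type and less RNA per cell cannot be told apart.

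Hmgcs1, the HMG-CoA synthase gene at the head of the route, had intensities of 2152, 3109 and 2413 on the KO-labelled preshocked arrays 5, 11 and 13, against 4408, 5460 and 4933 on the unheated arrays 6, 12 and 14. It had 5185 and 3937 on the rescue-labelled preshocked arrays 31 and 43, against 7633 and 6161 on the unheated arrays 32 and 44. Every preshocked array lay below every unheated array of its line, but the rescue-labelled preshocked array 31 lay above the KO-labelled unheated arrays 6 and 14. In KO-labelled cells Hmgcs1 fell by 49.9% (log2 change -0.998 ± 0.17 SE, limma adjusted p = 0.0300). In rescue-labelled cells the log2 change was -0.64 ± 0.21, which did not pass (adjusted p = 0.368). Taken over both lines with equal weight, a contrast that uses the arrays of both, it fell by 43.4% (-0.82 ± 0.14, adjusted p = 0.0148). The call in KO-labelled cells was lost when any 1 of the 10 arrays was left out, with adjusted p between 0.0510 and 0.120. The call over both lines was lost without array 32 (adjusted p = 0.0726) or array 43 (adjusted p = 0.0688), and with arrays centred on their medians (adjusted p = 0.459).

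Sqle, the squalene epoxidase gene, had intensities of 2932, 3627 and 4038 on the KO-labelled preshocked arrays 5, 11 and 13, against 4322, 5403 and 5891 on the unheated arrays 6, 12 and 14. On the rescue-labelled preshocked arrays 31 and 43 it had 3063 and 3314, against 5251 and 5039 on the unheated arrays 32 and 44. All 5 preshocked arrays lay below all 5 unheated arrays, whichever the line. None of the other listed sterol genes did so, and the share of all genes tested that did was not counted. Over both lines Sqle fell by 37.2% (log2 change -0.67 ± 0.11 SE, limma adjusted p = 0.0132). Neither line passed by itself, with log2 changes of -0.62 ± 0.14 in KO-labelled cells (adjusted p = 0.0724) and -0.73 ± 0.17 in rescue-labelled cells (adjusted p = 0.165). The call over both lines was lost without array 31, 32 or 44 (adjusted p = 0.0659, 0.0585 and 0.0532), and with arrays centred on their medians (adjusted p = 0.711).

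**Figure D1:**
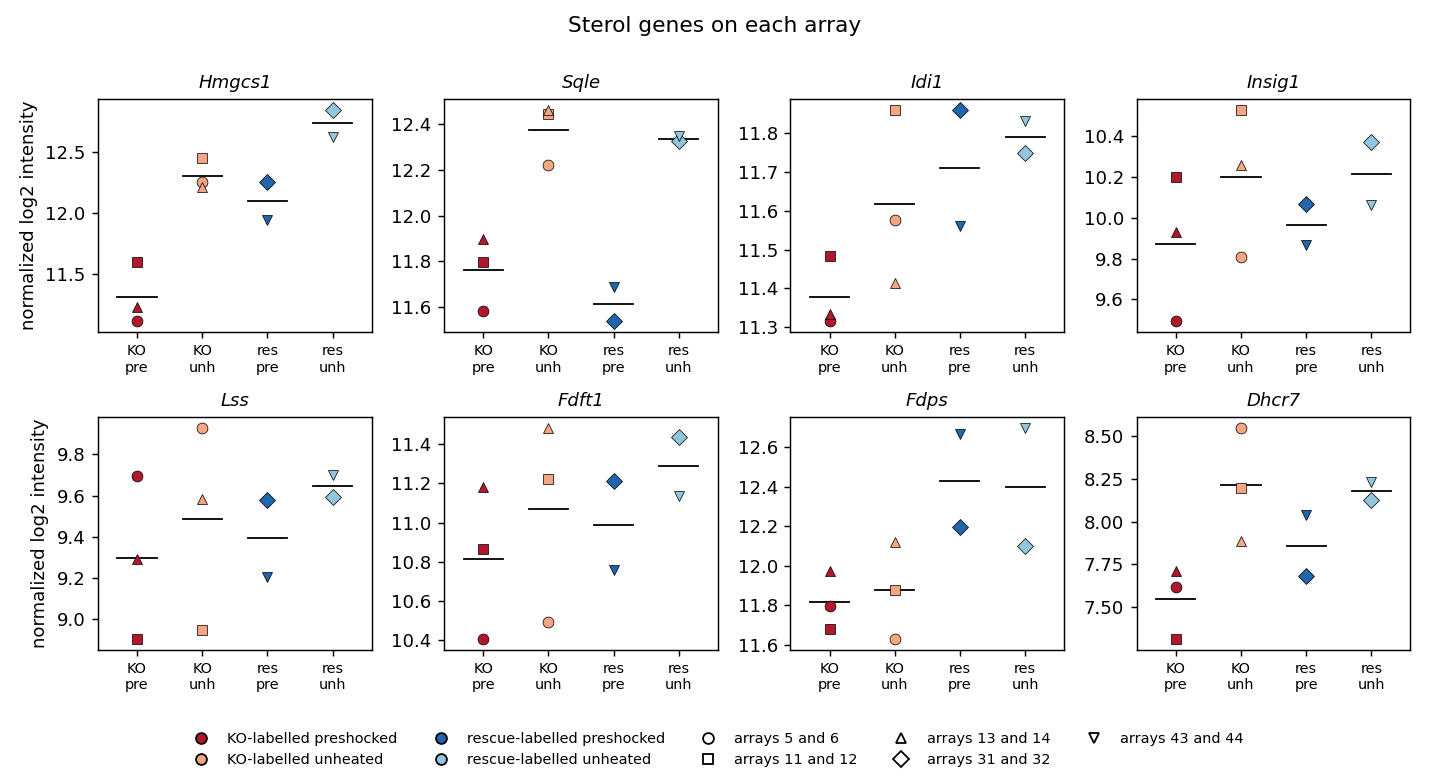
Normalized log2 intensity of the 8 sterol genes on each of 10 arrays, 1 panel per gene, with each group's mean as a line and each pair of adjoining array numbers as a marker shape. In Sqle the 5 preshocked arrays lie between 11.5 and 11.9 and the 5 unheated arrays between 12.2 and 12.5. In Fdps the preshocked and unheated arrays of each line overlap.

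The label numbers put each preshocked array next to an unheated array of its line, and arrays with adjoining numbers deviated together from their group means over all genes tested. Setting each preshocked array against its neighbour, with the pair as a block in the fit, narrowed the errors and added calls. Within pairs 5 and 6, 11 and 12, and 13 and 14, Sqle differed by -0.64, -0.65 and -0.57 on the log2 scale, and within the rescue-labelled pairs 31 and 32, and 43 and 44, by -0.79 and -0.66. Its mean over the 5 pairs was -0.66 ± 0.08 (SD). With the block, Sqle passed in KO-labelled cells (limma adjusted p = 0.0200) and in rescue-labelled cells (adjusted p = 0.0382). Hmgcs1 differed by -1.14, -0.86 and -0.99 within the 3 KO-labelled pairs and by -0.60 and -0.69 within the 2 rescue-labelled pairs. In rescue-labelled cells Hmgcs1 missed the threshold with the block too (adjusted p = 0.0575).

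Insig1, the retention protein, had intensities of 749, 1144 and 908 on the KO-labelled preshocked arrays 5, 11 and 13, against 934, 1491 and 1213 on the unheated arrays 6, 12 and 14. On the rescue-labelled preshocked arrays 31 and 43 it had 1029 and 955, against 1336 and 1118 on the unheated arrays 32 and 44. The groups overlapped in KO-labelled cells in these values, because pair 11 and 12 was high and pair 5 and 6 low as a whole, while every pair differed in the same direction. The differences within the 3 KO-labelled pairs were -0.31, -0.33 and -0.33 and those within the 2 rescue-labelled pairs -0.30 and -0.19, a mean of -0.29 ± 0.06 (SD, 5 pairs). Without the block Insig1 passed in no comparison (log2 change over both lines -0.29 ± 0.19 SE, limma adjusted p = 0.556). With the block it was called lower in KO-labelled cells (adjusted p = 0.0462) and over both lines (adjusted p = 0.0241).

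**Figure D2:**
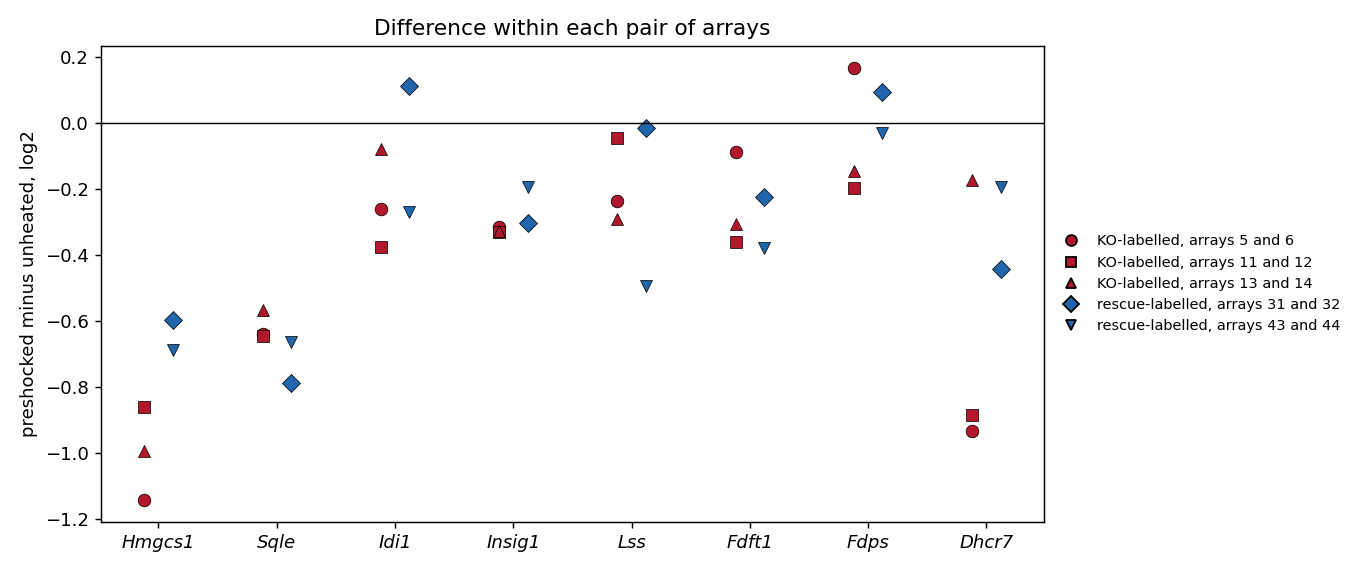
Difference in normalized log2 intensity, preshocked minus unheated, within each of the 5 pairs of arrays with adjoining label numbers, for the 8 sterol genes. All 5 points of Hmgcs1, Sqle, Insig1, Lss, Fdft1 and Dhcr7 lie below 0, and Idi1 and Fdps have points on both sides.

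Of the other sterol-branch enzymes, Dhcr7, the reductase of the last step, had a log2 change near that of Sqle in KO-labelled cells but a wider spread. Its intensity was 159 to 239 in KO-labelled preshocked arrays, against 218 to 429 in KO-labelled unheated arrays, and 178 and 255 in rescue-labelled preshocked arrays, against 269 and 321 in rescue-labelled unheated arrays. The log2 changes were -0.66 ± 0.20 SE in KO-labelled cells (limma adjusted p = 0.182) and -0.32 ± 0.25 in rescue-labelled cells (adjusted p = 0.936), and -0.49 ± 0.16 over both lines (adjusted p = 0.143). Within pairs it ran from -0.93 in arrays 5 and 6 to -0.17 in arrays 13 and 14, and with the block it did not pass (adjusted p = 0.0778 over both lines).

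Fdft1, squalene synthase, had a log2 change over both lines of -0.28 ± 0.24 SE (limma adjusted p = 0.699). It was lower within 5 of 5 pairs, by -0.38 to -0.09, and came to an adjusted p of 0.0542 with the block. Lss, lanosterol synthase, had -0.22 ± 0.22 (adjusted p = 0.768), also with 5 of 5 pairs below 0, and pair differences from -0.49 to -0.02. Upstream, Idi1 had -0.16 ± 0.12 (adjusted p = 0.653), with 4 of 5 pairs below 0. Fdps, the farnesyl diphosphate synthase whose product also feeds protein prenylation and other branches, had -0.01 ± 0.17 (adjusted p = 0.989), with 3 of 5 pairs below 0. The 95% interval of the change of Fdps ran from -0.41 to 0.38 on the log2 scale, so a change as large as that of Hmgcs1 lies outside it.

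Counted over the 8 genes, 1 (Hmgcs1) was called lower in KO-labelled cells without the block, where 0.825% of all genes tested were, and 3 with the block, where 5.82% were. In rescue-labelled cells 0 of 8 were called by limma, against 0.0825% of all genes called lower, and 1 (Sqle) with the block, against 0.77%. At an unadjusted p under 0.05, 2 of the 8 were lower in rescue-labelled cells, against 4.87% of all genes tested. Over both lines the counts were 2 of 8 without the block, against 2.57% of all genes, and 3 of 8 with it, against 11.5%. None of the 8 was called higher in any comparison.

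Overlap of the groups was counted in normalized values. In KO-labelled cells all preshocked arrays lay below all unheated ones for 3 of 8 genes (Hmgcs1, Sqle and Dhcr7), against 10.7% of all genes tested. In rescue-labelled cells these 3 and Lss did so, 4 of 8, where the background was 22.3%. In deposited intensity Dhcr7 overlapped in KO-labelled cells, with 239 on the preshocked array 5 and 218 on the unheated array 14. Insig1 in rescue-labelled cells overlapped in normalized values, with 10.064 on the preshocked array 31 and 10.061 on the unheated array 44, but not in deposited intensity. Within pairs, 6 of 8 genes were lower in 5 of 5, against 22% of all genes tested.

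The several probe sets of a gene gave a check on these values. In a fit over the 45037 probe sets that are not array controls, 4 bright probe sets of Hmgcs1 had KO-labelled log2 changes of -1.10 ± 0.24, -0.87 ± 0.26, -0.998 ± 0.22 and -0.73 ± 0.25 (SE), and rescue-labelled changes of -0.74, -0.67, -0.64 and -0.50. A dim 5th set had -0.75 ± 0.58 in KO-labelled and -1.09 ± 0.71 in rescue-labelled cells. All 5 Hmgcs1 probe sets thus had log2 changes below 0 in both lines. The 2 sets of Idi1 differed in which line lay lower, with -0.11 and -0.24 in KO-labelled and -0.53 and -0.08 in rescue-labelled cells. The 2 bright sets of Fdft1 were close to each other, with -0.25 and -0.24 in KO-labelled and -0.30 and -0.18 in rescue-labelled cells. The Lss set used had -0.19 ± 0.33 in KO-labelled and -0.25 ± 0.40 in rescue-labelled cells (SE). A second, dimmer Lss set had -0.31 ± 0.51 in KO-labelled and -0.68 ± 0.62 in rescue-labelled cells. Sqle, Insig1 and Dhcr7 have 1 probe set each, so no second set could be compared. In 4 sets (1 of Lss, 2 of Fdft1 and 1 of Fdps) the mean lay below that of any gene tested. None of the 19 probe sets was called in this fit, which adjusts over more features and gave larger standard errors (0.22 in place of 0.17 for the Hmgcs1 set used, in KO-labelled cells). The Hmgcs1, Lss and Fdft1 sets used for the genes carry suffixes that mark probes shared with other transcripts, so part of their signal may not be from these genes.

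**Figure D3:**
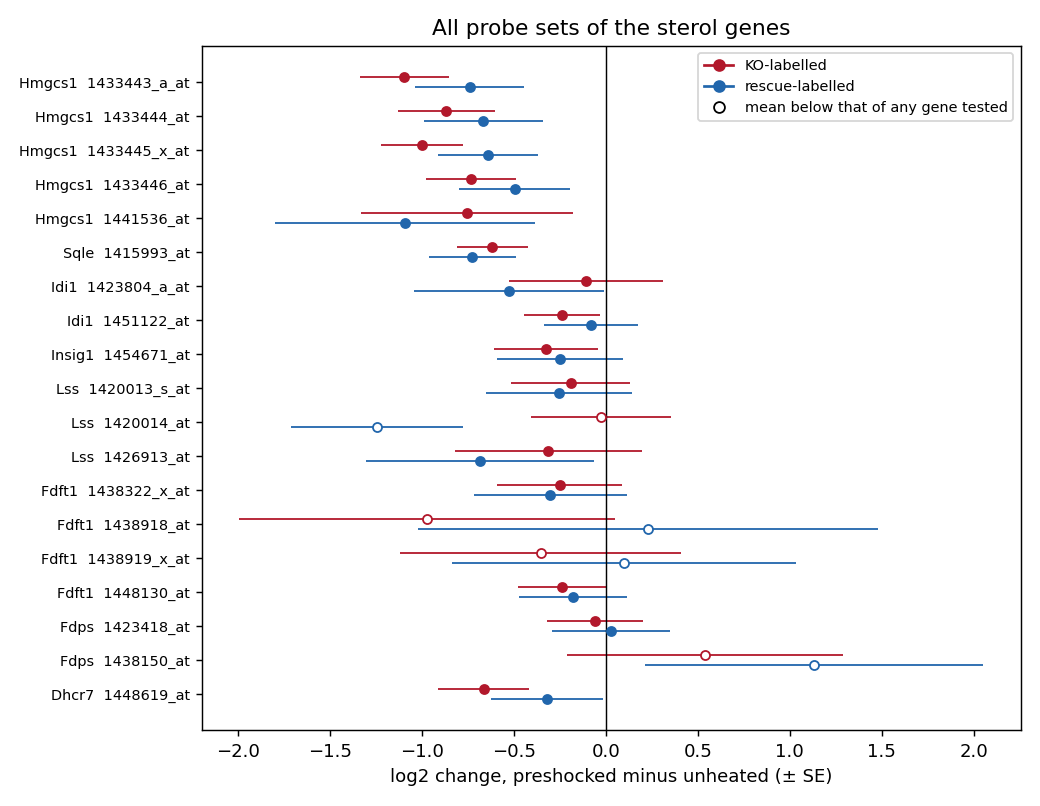
Log2 change, preshocked minus unheated, with its standard error, of all 19 probe sets of the 8 genes in KO-labelled and rescue-labelled cells; open circles mark sets dimmer than any gene tested. All 5 Hmgcs1 sets lie below 0 in both lines, and the widest errors are those of the dim Fdft1 and Fdps sets.

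Whether the lines differed in their response was tested as the KO-labelled minus the rescue-labelled change. The difference was -0.36 ± 0.27 SE for Hmgcs1, with a 95% interval from -0.98 to 0.27. It was 0.11 ± 0.22 for Sqle (interval -0.39 to 0.61) and -0.34 ± 0.32 for Dhcr7 (interval -1.07 to 0.38). None of the 8 genes passed by limma (adjusted p = 1), against 0% of all genes tested, and at an unadjusted p under 0.05 there was none, against 0.944%. With the pair block 1 gene, Hmgcs1, had an unadjusted p under 0.05, against 5% of all genes tested, and an adjusted p of 0.911. These intervals are wide enough to hold differences the size of the responses of Dhcr7 and, for Hmgcs1, of the rescue-labelled response itself.

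Between the lines, Hmgcs1 was the lowest in KO-labelled preshocked cells and Fdps lay lower in KO-labelled cells whether heated or not, though neither passed the adjusted threshold. In preshocked cells, Hmgcs1 averaged 11.31 ± 0.25 in KO-labelled (SD, n = 3) and 12.10 ± 0.22 in rescue-labelled arrays (SD, n = 2) on the log2 scale, and in unheated cells 12.31 ± 0.13 and 12.74 ± 0.16. The KO-labelled minus rescue-labelled difference was -0.79 ± 0.19 SE in preshocked cells (limma adjusted p = 0.156) and -0.43 ± 0.19 in unheated cells (adjusted p = 0.397). From high to low its groups ran rescue-labelled unheated, KO-labelled unheated, rescue-labelled preshocked and KO-labelled preshocked, and the KO-labelled unheated and rescue-labelled preshocked arrays overlapped in their normalized values.

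Fdps averaged 11.82 ± 0.15 in KO-labelled preshocked arrays (SD, n = 3) and 12.43 ± 0.33 in rescue-labelled preshocked arrays (SD, n = 2), and 11.88 ± 0.25 and 12.40 ± 0.42 in the unheated arrays of those lines. The differences were -0.61 ± 0.24 SE in preshocked cells (limma adjusted p = 0.315) and -0.52 ± 0.24 in unheated cells (adjusted p = 0.405). The groups of each line differed by less than their spread. Sqle, by contrast, was ordered by treatment, with 11.76 ± 0.16 in KO-labelled and 11.61 ± 0.10 in rescue-labelled preshocked arrays, against 12.38 ± 0.13 in KO-labelled and 12.34 ± 0.02 in rescue-labelled unheated arrays (SD, n = 3 KO-labelled and 2 rescue-labelled in each). The arrays of the lines overlapped in Sqle in each treatment. Its differences between lines were 0.15 ± 0.15 SE in preshocked and 0.04 ± 0.15 in unheated cells.

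Of the 8 genes, 0 passed between the lines by limma in preshocked cells, where 0.339% of all genes tested did, and 0 in unheated cells, where 0.421% did. At an unadjusted p under 0.05 the counts were 2 in preshocked cells (Hmgcs1 and Fdps), against 14.1% of all genes, and 0 in unheated cells, against 12.9%. Every KO-labelled array lay below every rescue-labelled one for Hmgcs1, Idi1 and Fdps in preshocked cells, 3 of 8 genes against a background of 16.6%, and for Hmgcs1 alone in unheated cells, 1 of 8 against 14.9%. For Idi1 this rests on the probe set used, at -0.33 between the preshocked lines, where its other bright set had 0.63 ± 0.47 SE in the fit over all probe sets. With the mean of all probe sets of a gene, 4 of the 8 genes lay below 0 between the preshocked lines, against 7 with the brightest set, and 4 between the unheated lines, against 6. These comparisons depend on how arrays are scaled. Centring each array on its median in place of quantile normalization moved the median difference of all genes to -0.42 in preshocked and -0.50 in unheated cells, and gave Sqle -0.33 and -0.54 there, values that moved with those of all genes.

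Over the 10 arrays, the normalized levels of Hmgcs1 correlated with the mean scaled level of the other 7 genes at r = 0.93. Sqle and Idi1 stood at 0.65, Dhcr7 at 0.56, Fdft1 at 0.52 and Insig1 at 0.51. Fdps at 0.29 and Lss at 0.04 followed the others least, each read from the probe set used for the gene and not from its other sets. These coefficients describe 10 arrays that share treatment groups and pairs, so they mix the response with other differences between arrays. Among all tested genes outside the 8, those closest to the mean scaled profile of the 8 over the 10 arrays were Clk2 (r = 0.98), Zkscan8 (0.97), Cep350 (0.96), Gm5141 (0.95) and Arhgef25 (0.95), none of them on the sterol and lipid lists described next. Clk2, a kinase of splicing factors, had log2 changes of -0.79 in KO-labelled and -0.63 in rescue-labelled cells, and Zkscan8, a zinc-finger gene, had -1.44 and -1.41.

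The rest of the pathway lay closer to 0 than Hmgcs1 and Sqle, and in the responses over both lines limma without the block called no gene of any other sterol or lipid list. Of 14 other cholesterol synthesis enzymes, 12 were tested, with a median log2 change over both lines of -0.09. Lbr, a sterol reductase that is also a protein of the inner nuclear membrane, had -0.33 ± 0.10 SE (adjusted p = 0.131). With the block Lbr was called lower (adjusted p = 0.0216), 1 of the 12, where 11.5% of all genes tested were. Nsdhl and Msmo1, which remove the methyl groups at carbon 4 of the sterol ring, had -0.26 ± 0.10 and -0.24 ± 0.10 and were not called (adjusted p = 0.214 and 0.283).

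SREBP factors and their control genes (6 of 6 tested) had a median of -0.08. Srebf2, which encodes SREBP2 itself, had a log2 change of 0.29 ± 0.27 SE (limma adjusted p = 0.738). Mbtps1, the site-1 protease, had -0.33 ± 0.11 (adjusted p = 0.160), and Mbtps2, the site-2 protease, had -0.22 ± 0.13 (adjusted p = 0.501). With the block Mbtps2 was called lower (adjusted p = 0.0402), 1 of the 6, where 11.5% of all genes tested were. Sterol uptake and trafficking genes (5 of 6 tested) had a median of 0.01. Among them Stard4, a cytosolic sterol carrier and SREBP2 target, had -0.41 ± 0.12 (adjusted p = 0.124). With the block Stard4 was called lower (adjusted p = 0.0190), 1 of the 5 tested, against the same 11.5%. Npc1, which exports cholesterol from lysosomes, had -0.13 and Scarb1, a lipoprotein receptor, 0.08.

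Genes of fatty acid synthesis, which are tied to the related factor SREBP1, were tested in 12 of 12 cases and had a median of -0.07. Without the block none was called, and with it 4 were called lower over both lines. They were Elovl6, a fatty acid elongase, at -0.58 ± 0.15 SE (limma adjusted p = 0.0209 with the block), Fasn, the fatty acid synthase, at -0.41 ± 0.12 (0.0207), Scd2, a desaturase, at -0.33 ± 0.11 (0.0167) and Acsl3, an acyl-CoA ligase, at -0.26 ± 0.10 (0.0300). With the block 11.5% of all genes were called lower in this comparison, as given above.

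Genes that use isoprenoids (6 of 7 tested) had a median of -0.07 with none called in either fit. Those with the smallest p were Pdss2 at -0.27, Fntb at -0.12 and Coq2 at -0.08. Of 5 genes listed under the receptor LXR and sterol efflux, not all of them efflux genes, 2 were tested. Abca1 was at 0.06 and Mylip at 0.05, and neither was called. For scale, the chaperone genes Dnajb1, Hsph1 and Hspb1 rose over both lines by 2.76 ± 0.13, 2.00 ± 0.16 and 1.81 ± 0.20 on the log2 scale (SE). With the pair block, Pdgfrb, 1 of the 6 fibroblast markers, was also called lower over both lines, by -0.74 ± 0.11 (limma adjusted p = 0.0180). In that fit 11.5% of all genes tested were called lower, and the part of Pdgfrb in the sterol values was not tested.

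**Figure D4:**
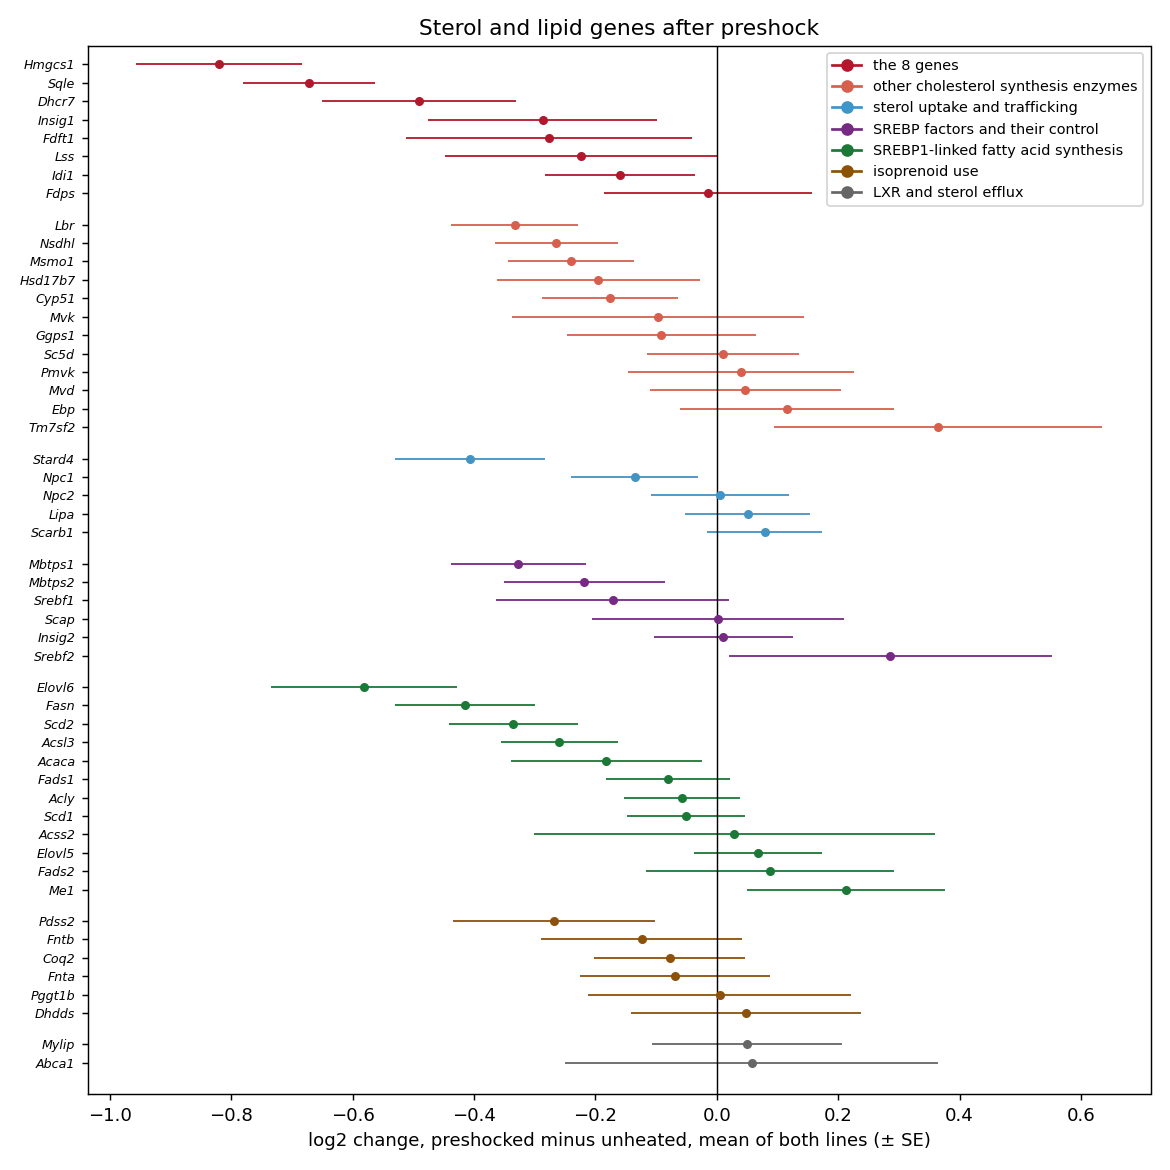
Log2 change after preshock as the mean of both lines, with its standard error from the fit without the pair block, for the 8 sterol genes and 6 related lists. Hmgcs1 at -0.82 and Sqle at -0.67 lie farthest below 0, followed by Elovl6 at -0.58.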

How the data were processed

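RNA of 10 samples was hybridised to 1 Affymetrix array each. The authors deposited 1 linear intensity per probe set and array, and their summarisation software is not given in these sources. The mean intensity after trimming 2% at each end was 500.003 to 500.004 on every array. Of 45101 probe sets, 64 were array controls, 34945 had 1 gene symbol in GEO's platform annotation and 932 had several. Values under 1 (4935) were set to 1, log2 was taken and arrays were quantile normalized. The probe set with the highest mean stood for a gene, and genes in the top 60% by mean signal were tested. limma 3.58.1 (R 4.3.3, statmod 1.5.0) fitted a mean for each of 4 groups over all 10 arrays. Benjamini-Hochberg adjustment ran over all genes tested, and "called" means an adjusted p under 0.05. The test was tried on simulated arrays drawn independently of each other, so the trial does not cover correlation within pairs. The number of arrays limits the precision.

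Pairing was checked by correlating deviations from group means between arrays with adjoining label numbers, which gave 0.721, 0.376, 0.552, 0.370 and 0.370. Each array's best partner was its neighbour, but the rescue-labelled values mirror each other with 2 arrays per group. The pair was a fixed block for responses and a random block (consensus correlation 0.716) between lines. The 8 genes, the other lists and the tests were chosen with earlier results of these data known. All 8 genes are named, with every array's values for those called by either fit. Other lists name called genes and up to 3 with the smallest p over both lines, and the 5 genes most like the mean profile are named by Pearson's r.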

Additional observations from a re-analysis of the deposited data

How the results depend on the processing

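The direction of Hmgcs1, Sqle, Insig1, Dhcr7 and Fdft1 after preshock was the same in both lines under every alternative run, but the calls depended on the settings. In KO-labelled cells, 1 of the 8 genes was called without the pair block. The count was 3 with the replicate block and 2 with a trended, robust variance. It was 0 with arrays centred on their medians, with the deposited scaling, with no filter on dim genes, with the mean of all probe sets of a gene, without arrays 5 and 6, in the fit over all probe sets, and on leaving out any single array (0 to 0). Hmgcs1 there had adjusted p of 0.869, 0.0626, 0.119, 0.119, 0.106 and 0.275 under those settings, in that order. In rescue-labelled cells 0 were called, against 1 with the replicate block and 0 to 0 on leaving out single arrays. Over both lines 2 were called, and 3 with the replicate block, which added Insig1. The count became 0 with arrays centred on their medians, with no filter and in the fit over all probe sets, and 0 to 2 on leaving out single arrays. It was 1 without array 31 (Hmgcs1), 1 without array 43 (Sqle), 1 without array 44 (Hmgcs1) and 0 without array 32. The unfiltered and all-probe-set fits adjust over more features, and the fit over all probe sets also gave larger standard errors. Calls over all genes tested, in either direction, also moved with the setting. In KO-labelled cells they numbered 999 of 10915 with the replicate block and 208 with the trended, robust variance. They were 147 with the deposited scaling, 101 with the mean of all probe sets and 112 without arrays 5 and 6. With centred arrays they were 26, and with no filter 28 of 18193. Over both lines they were 1901 with the block, 126 with centred arrays and 167 with no filter. The cause of the lost calls was not tested. With a floor of 16 the counts among the 8 stayed at 1 and 2. Between the lines and in the difference of responses 0 were called under every setting, and the replicate block changed no other call among the 8.

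Directions turned for several values near 0. With the mean of all probe sets, the genes below 0 numbered 4 of 8 between preshocked lines and 4 between unheated lines, against 7 and 6 with the brightest set. Fdps in KO-labelled cells became 0.059 with arrays centred on their medians and 0.24 with the mean of its probe sets, and over both lines 0.078 and 0.41, and 0.029 with the deposited scaling. Centring arrays on their medians moved the median of all genes to -0.50 between unheated lines and -0.42 between preshocked lines. With that shift Sqle became -0.54 between unheated lines and -0.33 between preshocked lines, and Dhcr7 became -0.47 between unheated lines; without arrays 5 and 6 the last was -0.14. Leaving out single arrays took Lss in KO-labelled cells from -0.46 to 0.030, Fdps there from -0.18 to 0.063, Idi1 in rescue-labelled cells from -0.23 to 0.069 and Fdps there from -0.27 to 0.33. It took Fdps over both lines from -0.16 to 0.13, its difference of responses from -0.39 to 0.21, Sqle between unheated lines from -0.0036 to 0.12 and Dhcr7 there from -0.14 to 0.19. Lone arrays left in a group were assumed to vary like the others.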
